A study of Arabidopsis thaliana with 27 samples.

Results

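Aquaporins are pore proteins that let water and small uncharged solutes cross membranes, and 33 of the 33602 genes in every count table were members of this family. They were taken from a fixed list of gene identifiers, chosen with earlier results of these data known. They comprised 5 PIP1 and 8 PIP2 genes (plasma membrane intrinsic proteins), 10 TIP genes (tonoplast intrinsic proteins, which sit in the membrane of the vacuole), 7 NIP genes (NOD26-like intrinsic proteins) and 3 SIP genes (small basic intrinsic proteins of the endoplasmic reticulum). PIP and TIP channels carry most of the water that moves through plant cells, and some also pass hydrogen peroxide, carbon dioxide, urea or ammonia. NIP channels pass metalloids such as boric acid and arsenite, and NIP5;1 is the boric acid channel of the root surface. PIP1 proteins generally reach the plasma membrane together with PIP2 partners, and the amount of open channel is set by trafficking and phosphorylation as well as by transcript level, which is what was measured here.

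The libraries came from protoplasts of Arabidopsis plants grown for 17 d in constant white light at 50 µE per square metre per second, in 9 groups of 3 libraries. Total root protoplasts were made from the Col-0 strain at low light without transcription inhibitors. Leaf protoplasts were made from first true leaves, and palisade and reference cells carrying the same pairing letter were sorted from 1 pool, of which there were 12. In the strain IQD22pro::GUS-mCit the IQD22 promoter drives a GUS-mCitrine fusion in the palisade layer: sorted palisade cells contained chlorophyll and mCitrine, and reference cells contained chlorophyll without mCitrine, so the reference population can hold spongy mesophyll, bundle sheath and other green cells. These populations were collected without inhibitors at low light, with inhibitors (actinomycin D and cordycepin in the protoplasting solution) at low light, and with inhibitors after 2 h of high light at 300 µE per square metre per second. In the strain JR11-2, a GAL4-VP16 enhancer trap crossed into Col-0 whose GFP is highest in lower spongy mesophyll, the library labelled palisade is the green population without GFP and the one labelled reference is the population with GFP. Its libraries were made without inhibitors at low light. Each leaf strain is a single line, each library pools many plants, and root and leaf libraries differ in strain, transgene and sorting as well as in organ, which cannot be told apart. Nothing in the labels says how the replicate plants were grown apart, so p-values measure the spread between these libraries.

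Depth ranged from 15074702 to 38792923 counts on genes per library, so that 3 counts correspond to 0.0773 to 0.199 CPM (counts per 1e6 counts of the library), and intervals below cover counting error only. CPM values are scaled by edgeR's TMM method over all 27 libraries, whereas each fold change comes from a fit of the libraries compared. A gene was called when its Benjamini-Hochberg adjusted p (FDR) from edgeR's quasi-likelihood test was below 0.05 and its fold-difference above 2. Summed levels of 5 leaf mesophyll markers (LHCB1.1, CAB3, RBCS1A, CA1 and LHCA1) were 12.9 to 14.01 CPM in root libraries and 11522 to 50242 CPM in leaf libraries, and those of 7 root cell markers were 166 to 259.6 CPM in root libraries and 11.7 to 56.1 CPM in leaf libraries. SCR, an endodermal regulator that is also expressed in leaf bundle sheath, made up nearly all of the leaf sum, with 15.1 to 26.3 CPM in root libraries and 11.4 to 55.8 CPM in leaf libraries, which overlapped.

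The channel pore is lined by Asn-Pro-Ala boxes, one in each of the loops that dip into the membrane from opposite sides. In 25 of the 33 members both boxes end in alanine. The remaining 8, which are 5 of the 7 NIP and all 3 SIP genes, carry another residue in at least 1 box. The coding stretches around the first box are shown for the members on which the organ and cell comparisons turn, 33 bases each from the TAIR10.1 reference, with the Asn-Pro-X codons in capitals.
PIP2;2, first box: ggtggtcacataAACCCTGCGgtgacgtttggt
PIP2;3, first box: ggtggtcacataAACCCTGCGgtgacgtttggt
PIP2;6, first box: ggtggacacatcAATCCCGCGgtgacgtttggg
TIP1;1, first box: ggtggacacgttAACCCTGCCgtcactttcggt
TIP4;1, first box: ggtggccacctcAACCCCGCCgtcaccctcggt
NIP1;1, first box: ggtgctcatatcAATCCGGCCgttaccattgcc
NIP5;1, first box: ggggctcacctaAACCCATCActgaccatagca
SIP1;2, first box: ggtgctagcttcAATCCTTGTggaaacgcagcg
SIP2;1, first box: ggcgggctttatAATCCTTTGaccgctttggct
The first and second of these stretches are the same base for base. The third codon of the first box encodes serine in NIP5;1, cysteine in SIP1;2 and leucine in SIP2;1. The second box departs from alanine only in NIP genes, with valine in NIP5;1 and glycine in NIP1;1, as the stretches around it show.
NIP1;1, second box: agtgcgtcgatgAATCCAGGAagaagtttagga
NIP5;1, second box: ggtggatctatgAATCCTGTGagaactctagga
PIP2;2, second box: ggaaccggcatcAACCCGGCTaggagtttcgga

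Levels of different genes were compared per length, as CPM per kb of exon. In root libraries the highest levels were those of TIP2;1 (798 ± 290.3, SD, n = 3), TIP1;1 (581.7 ± 229), TIP1;2 (558 ± 181), PIP1;2 (519 ± 198), PIP2;7 (501 ± 161) and PIP1;3 (408 ± 118), each overlapping the next over the 3 libraries. In IQD22 palisade cells without inhibitors they were those of PIP2;1 (192 ± 26.1), PIP1;2 (185 ± 1.04), TIP1;2 (146 ± 82.5), TIP2;1 (110.5 ± 22.3), PIP1;1 (96.9 ± 4.94) and PIP2;6 (91.5 ± 14.9), again with no gap between neighbours. In IQD22 reference cells PIP2;1 led at 330.1 ± 44.0, followed by TIP2;1 at 289.7 ± 73.6, PIP1;2 at 283 ± 15.04 and TIP1;1 at 255 ± 16.6, and only the step between PIP1;2 and TIP1;1 was free of overlap. The 3 TIP genes named here encode abundant channels of the vacuolar membrane, and the product of the first also passes ammonia. At 10 counts or more, 27 members were present in every root library and 17 in every leaf library, and 10 of the 27 did not reach that level in every leaf library. Root libraries were deeper, at 30338036 to 38792923 counts on genes, against 15074702 to 27247510 in leaf libraries. The cut also had to hold in 3 root but 24 leaf libraries, so 27 and 17 are not on equal terms. The share of all genes passing it was not counted.

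**Figure D1:**
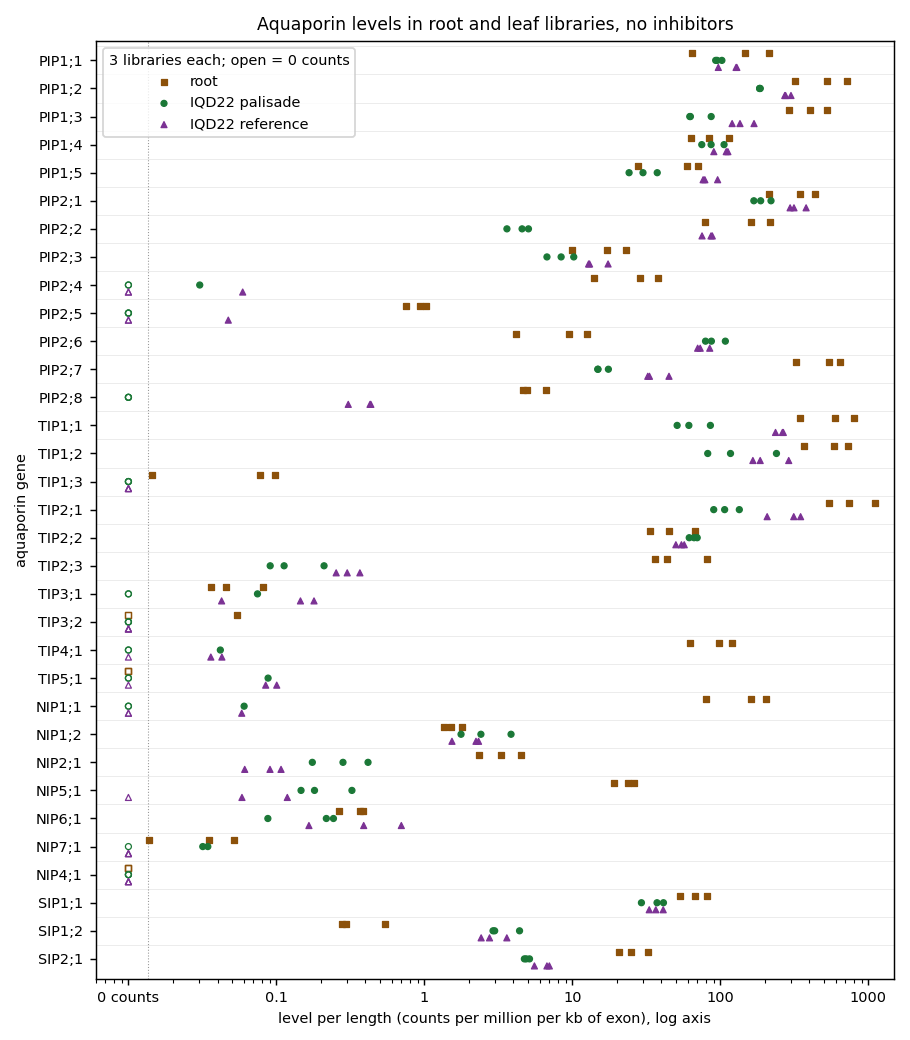
Level of each aquaporin gene in root, IQD22 palisade and IQD22 reference libraries without inhibitors, as CPM per kb of exon on a log axis, with 1 point per library and open symbols at the left edge for libraries with no count. NIP1;1, TIP4;1 and PIP2;4 lie far to the right in root libraries, with 116 to 298, 73.0 to 139.7 and 20.3 to 54.6 CPM, and near the floor in both leaf populations.

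Summed over the 33 genes, the level per length was 4714, 6273 and 2980 in the root libraries, against 1165, 1160 and 1336 in IQD22 palisade and 2037, 2084 and 2278 in IQD22 reference libraries. The root mean was 3.81 times that of palisade and 2.18 times that of reference cells, and no root library overlapped a leaf library without inhibitors of this strain. The third root library was the lowest, and the highest root library exceeded the lowest by 2.10 times. TIP genes made up 45.8% ± 1.05 of the sum in root and 31.6% ± 5.27 in palisade cells, NIP genes 3.76% ± 0.277 and 0.281% ± 0.0916, and PIP genes 48.3% ± 0.953 and 64.5% ± 5.21 (SD, n = 3 each). The TIP and PIP shares of the other leaf groups without inhibitors lay nearer to root. TIP genes made up 38.0% in IQD22 reference, 39.5% in JR11-2 palisade-labelled and 39.9% in JR11-2 reference-labelled cells, and PIP genes 59.7%, 57.5% and 57.7%. Transcripts per cell and numbers of cells of a kind cannot be told apart in such pooled libraries.

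**Figure D2:**
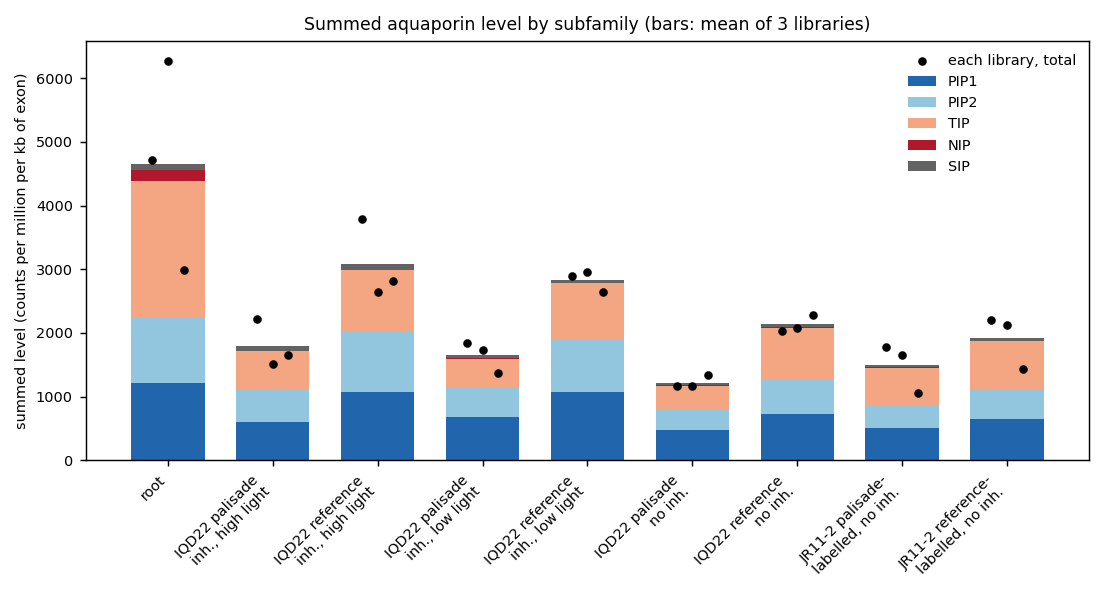
Summed level per length of the PIP1, PIP2, TIP, NIP and SIP genes in each of the 9 groups, as stacked means of 3 libraries, with points for the total in each library. The root total averages 3.81 times that of IQD22 palisade cells, and in every leaf condition the palisade total lies below the reference total of the same condition.

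To ask which channels separate root from leaf, root libraries were compared with each of the 4 leaf groups without inhibitors, all of which share the same 3 root libraries. Of 28 members tested each time, 16 were called higher and 2 lower in root than in IQD22 palisade cells, where 65.3% of all genes tested were called, 38.2% higher and 27.1% lower. Against IQD22 reference cells 14 were higher and 2 lower (64.1% of all genes called, 36.7% and 27.4%), against JR11-2 palisade-labelled cells 18 and 2 (63.4% called, 36.5% and 26.9%), and against JR11-2 reference-labelled cells 16 and 2 (63.5% called, 36.7% and 26.8%). The members' median log2 fold change was 2.13, 0.98, 1.69 and 1.11 in these comparisons, where that of all genes was 0.38, 0.32, 0.34 and 0.33. In all 4, 13 members were called higher and 2 lower, all of which are described by subfamily, and 8 were tested and called in none. Since so many genes differ between the organs, the counts per comparison are read beside the share of all genes. The share of all genes called in all 4 was not counted.

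Of the NIP channels, NIP1;1 (AT4G19030, chr4:10421521-10423508), which passes arsenite, had 233, 298 and 116 CPM in root libraries and at most 0.0879 CPM in any leaf library without inhibitors. It had 34765 counts in 3 root libraries and 5 counts in 12 leaf libraries, a ratio of 10866 (95% counting interval 4656 to 33466). NIP5;1 (AT4G10380, chr4:6431161-6435396), the boric acid channel, had 51.9, 56.9 and 41.7 CPM in root and 0.393, 0.318 and 0.703 CPM in IQD22 palisade libraries, and its summed counts were 106 times those of the 12 leaf libraries (88.7 to 128). Both genes were thus present in every root library at levels that no leaf library approached (edgeR FDR between 2.29e-10 and 1.85e-07 over the 4 comparisons). In JR11-2 the boric acid channel had 0.232, 0.848 and 0.466 CPM in palisade-labelled and 0.286, 0.491 and 1.85 CPM in reference-labelled libraries, and it had 0.257, 0 and 0.127 CPM in IQD22 reference libraries, where a library without a count stood beside the others. NIP2;1 (AT2G34390, chr2:14514487-14515988), a lactic acid channel induced by low oxygen, was lower in absolute terms, with 4.64, 6.27 and 3.28 CPM in root and 0.0518 to 0.696 CPM in leaf libraries without inhibitors, a ratio of 13.6 (10.9 to 17.1). It shares 10.4% of its 50-base windows with other loci, and reads with more than 1 alignment were not counted. NIP1;2 (AT4G18910, chr4:10366044-10368510), which takes up an aluminium malate complex in roots, did not follow the arsenite channel: it had 2.58, 1.97 and 2.19 CPM in root and 5.55, 2.55 and 3.47 CPM in palisade libraries, and was called in none of the 4 comparisons. NIP6;1 (AT1G80760, chr1:30350539-30352208), a boric acid channel of shoot nodes, had 0.320, 0.470 and 0.444 CPM in root and 0.106 to 1.12 CPM in leaf libraries without inhibitors, which overlapped.

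Among the vacuolar channels, TIP4;1 (AT2G25810, chr2:11012499-11014171) resembled the arsenite channel, with 115, 139.7 and 73.0 CPM in root libraries and 5 counts in all 12 leaf libraries without inhibitors, a ratio of 5538 (2373 to 17057). TIP2;3 (AT5G47450, chr5:19248249-19249622), which passes ammonia, had 51.1, 95.2 and 42.2 CPM in root and 0.0929 to 0.529 CPM in those leaf libraries, a ratio of 227 (180.1 to 291). Over the leaf groups it had 0.245, 0.106 and 0.132 CPM in IQD22 palisade, 0.429, 0.352 and 0.296 CPM in IQD22 reference, 0.0929, 0.485 and 0.104 CPM in JR11-2 palisade-labelled and 0.245, 0.287 and 0.529 CPM in JR11-2 reference-labelled libraries. Neither gene's root libraries came near any leaf library (edgeR FDR between 1.04e-10 and 1.12e-07). The remaining TIP calls concerned channels that leaf cells also hold at high level. TIP2;1 (AT3G16240, chr3:5505360-5507050) had 882, 1322 and 641 CPM in root, against 127, 107 and 159.7 CPM in IQD22 palisade libraries (log2 fold change 2.82 ± 0.28 SE, edgeR FDR 6.92e-07) and 373, 246 and 414 CPM in reference libraries (1.40 ± 0.28, FDR 0.00047). The same channel had 241, 266 and 151 CPM in JR11-2 palisade-labelled libraries (log2 fold change of root 2.07 ± 0.30, FDR 8.52e-05) and 337, 370.4 and 231 CPM in JR11-2 reference-labelled libraries (1.57 ± 0.28, FDR 0.000329). TIP1;1 (AT2G36830, chr2:15445294-15446621) had 732, 997 and 429.9 CPM in root, against 106, 63.1 and 75.8 CPM in palisade libraries (3.11 ± 0.31, FDR 6.36e-07) and 325, 329.5 and 292 CPM in reference libraries (1.14 ± 0.26, FDR 0.00126). It had 147, 139.8 and 83.01 CPM in JR11-2 palisade-labelled libraries (log2 fold change of root 2.50 ± 0.32, FDR 3.31e-05) and 247, 231 and 149 CPM in JR11-2 reference-labelled libraries (1.76 ± 0.31, FDR 0.000248). For both, every root library was above every leaf library without inhibitors, and the IQD22 reference libraries without inhibitors lay between the IQD22 palisade and the root libraries. TIP1;2 (AT3G26520, chr3:9722443-9723904) had 752, 936 and 473 CPM in root and 106, 151 and 309 CPM in palisade libraries (1.89 ± 0.36, FDR 0.000327), and was called in 3 of the 4 comparisons. It had 358, 401 and 215 CPM in JR11-2 palisade-labelled libraries (log2 fold change of root 1.11 ± 0.30, FDR 0.00545) and 405, 468 and 277 CPM in JR11-2 reference-labelled libraries (0.88 ± 0.28, FDR 0.0121). TIP2;2 (AT4G17340, chr4:9698940-9700472) was not called in any of the 4: it had 60.7, 91.0 and 45.4 CPM in root and 94.4, 83.4 and 89.8 CPM in palisade libraries, groups that overlapped.

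The PIP2 genes, whose products form the main water pores of the plasma membrane, split into root channels, shared channels and 1 leaf channel. PIP2;4 (AT5G60660, chr5:24375368-24377206) had 41.4, 54.6 and 20.3 CPM in root libraries and 7 counts in the 12 leaf libraries without inhibitors, a ratio of 1395 (676 to 3470). PIP2;5 (AT3G54820, chr3:20301759-20304309) had 1.34, 1.82 and 1.68 CPM in root and 3 counts in those leaf libraries (ratio 141, 47.6 to 686). PIP2;8 (AT2G16850, chr2:7301334-7303509) had 7.35, 6.81 and 9.74 CPM in root libraries and no count in the IQD22 palisade libraries, so that it was at least 167-fold higher in root when 3 counts are taken as the floor over the palisade group. It did have 0.643, 0.452 and 0.635 CPM in IQD22 reference libraries, so its transcript was not confined to root. PIP2;7 (AT4G35100, chr4:16708361-16710407) had the highest level of these, with 865, 1026 and 519 CPM in root, against 23.8, 23.9 and 28.1 CPM in palisade libraries (4.96 ± 0.29, FDR 2.66e-09) and 53.2, 51.8 and 72.1 CPM in reference libraries (3.71 ± 0.27, FDR 6.46e-08). Its levels were 47.4, 42.6 and 15.2 CPM in JR11-2 palisade-labelled libraries (log2 fold change of root 4.48 ± 0.44, FDR 3.46e-06) and 93.7, 83.02 and 36.2 CPM in JR11-2 reference-labelled libraries (3.47 ± 0.38, FDR 5.21e-06). PIP2;2 (AT2G37170) had 216, 292 and 107 CPM in root, against 4.86, 6.79 and 6.15 CPM in palisade libraries (5.07 ± 0.34, FDR 1.34e-08) and 101, 116 and 119 CPM in reference libraries (0.81 ± 0.28, FDR 0.0176, below the fold limit). Its root libraries thus stood far above palisade cells and overlapped the reference cells. In the other strain it had 44.7, 39.5 and 22.4 CPM in JR11-2 palisade-labelled libraries (log2 fold change of root 2.48 ± 0.36, FDR 7.72e-05) and 99.3, 104 and 72.9 CPM in JR11-2 reference-labelled libraries (1.12 ± 0.30, FDR 0.00529). PIP2;1 (AT3G53420, chr3:19803473-19805730), an abundant channel of many tissues, had 546, 686 and 333 CPM in root, 295, 346 and 265 CPM in palisade and 466, 597 and 494 CPM in reference libraries, and was called in no root comparison. It had 416, 317 and 189.9 CPM in JR11-2 palisade-labelled libraries (log2 fold change of root 0.72 ± 0.31, FDR 0.0561) and 498, 406 and 269 CPM in JR11-2 reference-labelled libraries (0.39 ± 0.29, FDR 0.241).

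PIP2;6 (AT2G39010, chr2:16291280-16294101) was the member with the clearest leaf level. It had 20.3, 26.8 and 8.99 CPM in root libraries, against 171, 187 and 232 CPM in IQD22 palisade libraries (log2 fold change -3.43 ± 0.33, edgeR FDR 4.75e-07) and 157, 151 and 182 CPM in reference libraries (-3.18 ± 0.32, FDR 1.09e-06). It had 221, 214 and 204 CPM in JR11-2 palisade-labelled libraries (log2 fold change of root -3.55 ± 0.33, FDR 2.56e-06) and 172, 178 and 172 CPM in JR11-2 reference-labelled libraries (-3.24 ± 0.32, FDR 2.35e-06). No root library reached a leaf library. Among PIP1 genes, PIP1;3 (AT1G01620, chr1:225665-227543) was called higher in root in all 4 comparisons, with 627, 818 and 453 CPM in root and 97.2, 96.3 and 134 CPM in palisade libraries (2.50 ± 0.25, FDR 8.14e-07). It had 210.2, 186 and 262 CPM in IQD22 reference libraries (1.47 ± 0.23, FDR 7.95e-05), 193, 165 and 103 CPM in JR11-2 palisade-labelled libraries (log2 fold change of root 2.00 ± 0.28, FDR 6.64e-05) and 262, 238 and 144 CPM in JR11-2 reference-labelled libraries (1.53 ± 0.28, FDR 0.000349). PIP1;2 (AT2G45960, chr2:18910081-18911982), a plasma membrane channel also studied for carbon dioxide entry, had 839, 1139.8 and 508 CPM in root and 294, 294 and 297 CPM in palisade libraries (1.46 ± 0.26, FDR 0.000175) and was called in 3 comparisons. It had 435, 479 and 440.4 CPM in IQD22 reference libraries (0.82 ± 0.25, FDR 0.00897, below the fold limit), 374, 323 and 232 CPM in JR11-2 palisade-labelled libraries (log2 fold change of root 1.38 ± 0.29, FDR 0.00131) and 448, 388 and 301 CPM in JR11-2 reference-labelled libraries (1.103 ± 0.28, FDR 0.00379). PIP1;1 (AT3G61430), PIP1;4 (AT4G00430) and PIP1;5 (AT4G23400) were called in none. The first had 227, 329 and 100.4 CPM in root and 145, 159 and 148 CPM in palisade libraries, and the second 169, 229 and 127 CPM in root and 212, 173 and 149.7 CPM in palisade libraries, both with overlapping groups. The log2 fold change of PIP1;5 was 0.75 against IQD22 palisade and -0.72 against IQD22 reference cells.

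The SIP genes of the endoplasmic reticulum also differed among themselves. SIP2;1 (AT3G56950, chr3:21078297-21079925) had 32.0, 42.0 and 26.5 CPM in root and 6.09, 6.26 and 6.59 CPM in palisade libraries (2.38 ± 0.21, FDR 1.92e-07). It had 7.11, 8.65 and 8.97 CPM in IQD22 reference libraries (1.97 ± 0.20, FDR 1.27e-06), 7.48, 5.01 and 6.01 CPM in JR11-2 palisade-labelled libraries (log2 fold change of root 2.41 ± 0.22, FDR 1.81e-06) and 7.93, 6.43 and 8.13 CPM in JR11-2 reference-labelled libraries (2.14 ± 0.20, FDR 1.49e-06). SIP1;2 (AT5G18290, chr5:6055028-6058368) had 0.703, 0.361 and 0.381 CPM in root, against 5.69, 3.77 and 3.87 CPM in palisade (-3.24 ± 0.36, FDR 1.98e-06) and 4.67, 3.57 and 3.13 CPM in reference libraries (-3.03 ± 0.34, FDR 3.8e-06). It had 5.20, 4.65 and 5.49 CPM in JR11-2 palisade-labelled libraries (log2 fold change of root -3.44 ± 0.33, FDR 3.2e-06) and 4.50, 3.81 and 5.22 CPM in JR11-2 reference-labelled libraries (-3.24 ± 0.34, FDR 3.73e-06). SIP1;1 (AT3G04090, chr3:1071984-1074244) had 87.4, 104 and 69.2 CPM in root and 53.3, 37.8 and 48.2 CPM in palisade libraries, and its log2 fold change, between 0.82 and 1.09 over the 4 comparisons, passed the fold limit only against the JR11-2 groups, which had 44.2, 41.4 and 36.1 CPM (palisade-labelled) and 41.2, 43.2 and 36.6 CPM (reference-labelled). For all 3 genes the root libraries lay wholly to one side of the leaf libraries without inhibitors.

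Few members were near zero everywhere. TIP1;3 (AT4G01470), TIP5;1 (AT3G47440) and NIP4;1 (AT5G37810), known from pollen, NIP7;1 (AT3G06100), known from anthers, and TIP3;2 (AT1G17810), known from seeds, had too few counts to be tested in any root comparison. The pollen gene AT5G37810 had no count in any library. AT4G01470 had 11 counts over the root libraries and none over the 12 leaf libraries without inhibitors, at least 5.73-fold higher in root. AT3G06100 had 0.0213, 0.0542 and 0.0793 CPM in root libraries and at most 0.0531 CPM in leaf libraries without inhibitors. TIP3;1 (AT1G73190), a vacuolar channel of seeds, was tested with 0.0426 to 0.0952 CPM in root and at most 0.212 CPM in those leaf libraries, without a call.

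In a list of 16 proteins known to traffic, phosphorylate or degrade aquaporins or to act on their abundance, 15 were tested, and 7 were higher and 4 lower in root than in IQD22 palisade cells. Of all genes tested in this comparison, 38.2% were called higher and 27.1% lower, so such counts are near that share. The syntaxin SYP121, which delivers PIP proteins to the plasma membrane, had a log2 fold change of -2.96, and QSK1, a receptor kinase that with SIRK1 phosphorylates PIP channels, of -2.34, while SIRK1 itself was at 2.14. The values of SYP121 and QSK1 rest on leaf libraries without inhibitors. With inhibitors at low light SYP121 had 47.3, 63.7 and 42.7 CPM in palisade libraries, overlapping 56.9, 69.4 and 54.0 CPM in the root libraries without inhibitors. QSK1 then had 50.2, 53.1 and 35.1 CPM, below 113, 125 and 97.1 CPM in the same root libraries. No root library was made with inhibitors, so the organ difference of either gene under that treatment is not known. RMA1, a ubiquitin ligase that acts on PIP2 proteins, was at 1.73, and the 14-3-3 proteins GRF4 and GRF10 at 2.04 and 2.71. Of 3 boron exporters, which act beside NIP5;1, BOR2 and BOR4 were called higher in root and BOR1 was not (-0.27). The log2 fold change of BOR2 was 5.14, and BOR4 had 1.81, 2.51 and 2.98 CPM in root and no count in palisade libraries. The list median was 0.56 for the 15 regulators, where that of all genes was 0.38. Of 11 pumps and transporters of the tonoplast and plasma membrane, which set the gradients that water follows, 4 were higher and 2 lower in root than in palisade cells. The shares of all genes were 38.2% and 27.1%, so these counts do not set the pumps and transporters apart. AHA2, the main proton pump of the root plasma membrane, had a log2 fold change of 2.20, the vacuolar sugar importer TST1 of 1.59, and the vacuolar proton pump subunits VHA-A and VHA-a2 of 1.15 and 1.02. The vacuolar calcium exchangers CAX1 and CAX3 were lower in root, at -4.72 and -1.05. Against IQD22 reference cells 3 were higher (VHA-A, TST1 and AHA2) and 2 lower (CAX1 and AHA1), where 36.7% and 27.4% of all genes were.

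Palisade and reference cells of 1 pool were compared to ask which channels mark the palisade layer. Without inhibitors, 25 members were tested, 7 of which were called lower and 2 higher in IQD22 palisade cells, where 8.75% of all genes were called, 6.7% lower and 2.04% higher. With inhibitors at low light 9 of 22 were lower and none higher (7.69% of all genes called, 5.56% and 2.13%), and at high light 9 of 23 were lower and none higher (8.42% called, 6.36% and 2.06%). The members' median log2 fold change was -0.81, -0.79 and -0.82, where that of all genes was -0.00, -0.03 and -0.01. PIP1;3, PIP1;5, PIP2;2, PIP2;8, TIP1;1 and TIP2;1 were called lower in all 3. Of the 17 members with at least 10 counts in every leaf library, 10 were lower in the palisade library of all 12 pools, both strains included, and 1 (PIP2;6) was higher in all 12. The share of all genes on 1 side in all 12 pools, or called lower in all 3 IQD22 comparisons, was not counted. The summed level per length of palisade cells was 0.572, 0.582 and 0.584 times that of reference cells in these comparisons.

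**Figure D3:**
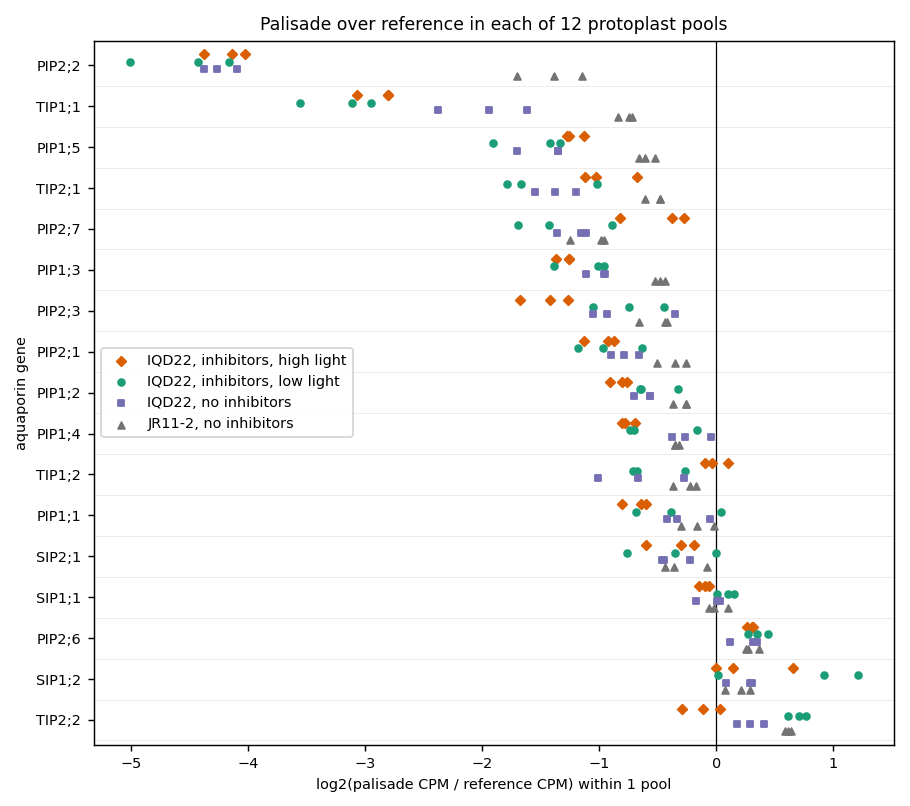
Log2 ratio of palisade over reference CPM within each of the 12 pools, for the 17 members with at least 10 counts in every leaf library, with symbols for the 3 IQD22 conditions and for JR11-2. PIP2;2 and TIP1;1 lie farthest to the left, with the JR11-2 points nearer to 0 for both, and PIP2;6 lies to the right of 0 in every pool.

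Among the 17 members with at least 10 counts in every leaf library, PIP2;2 showed the widest difference between the IQD22 populations. With inhibitors at low light it had 7.28, 5.06 and 7.99 CPM in palisade libraries, against 157, 163 and 143 CPM in reference libraries (log2 fold change -4.64 ± 0.12, edgeR FDR 1.14e-15). Without inhibitors it had 4.86, 6.79 and 6.15 CPM in palisade libraries, against 101, 116 and 119 CPM in reference libraries (-4.28 ± 0.10, FDR 6.3e-14), and at high light 7.20, 5.20 and 4.22 CPM, against 127, 84.9 and 87.7 CPM (-4.23 ± 0.10, FDR 8.95e-27). Every palisade library was thus more than an order of magnitude below its reference partner. PIP2;3 (AT2G37180), whose coding sequence matches that of PIP2;2 at 94.8% of aligned bases, did not share this: it had 8.92, 7.46 and 6.17 CPM in palisade libraries, against 12.2, 15.5 and 10.3 CPM in reference libraries with inhibitors at low light (-0.88 ± 0.13, FDR 2.4e-05, below the fold limit). At high light it had 15.9, 9.07 and 8.58 CPM in palisade libraries, against 38.3, 24.3 and 27.6 CPM in reference libraries (-1.50 ± 0.10, FDR 3.85e-14, a call). Because 14.7% and 16.5% of the 50-base windows of PIP2;2 and PIP2;3 occur more than once in the genome and such reads were not counted, the levels of both are uncertain.

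The genes lie head to head on chromosome 2, 2612 bases apart, PIP2;2 on the minus strand at chr2:15613368-15615022 and PIP2;3 on the plus strand at chr2:15617635-15619155 in TAIR10.1. The 250 bases before each annotated start are given, and 118 of 267 aligned columns of these windows, gaps included, are identical (44.2%). By the same alignment the least alike coding sequences of the members, NIP6;1 and SIP2;1, match at 40.5%, so 44.2% shows little likeness. Whether the windows bear on the difference in level was not tested. The windows are shown in lower case throughout, 5′ to 3′ on the strand of the gene, and cover chr2:15615023-15615272 for PIP2;2 and chr2:15617385-15617634 for PIP2;3.
PIP2;2, 250 bases before the start: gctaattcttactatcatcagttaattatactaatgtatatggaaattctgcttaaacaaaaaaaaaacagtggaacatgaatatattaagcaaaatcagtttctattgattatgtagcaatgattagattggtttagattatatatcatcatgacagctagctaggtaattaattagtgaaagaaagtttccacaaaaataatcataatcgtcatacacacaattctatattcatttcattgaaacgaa
PIP2;3, 250 bases before the start: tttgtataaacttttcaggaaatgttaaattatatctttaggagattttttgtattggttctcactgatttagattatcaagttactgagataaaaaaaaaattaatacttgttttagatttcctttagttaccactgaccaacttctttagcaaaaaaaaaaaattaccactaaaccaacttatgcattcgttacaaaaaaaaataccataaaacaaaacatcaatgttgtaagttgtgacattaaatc
No motif was searched in these windows.

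Among the same 17 members TIP1;1 came second in the IQD22 conditions. With inhibitors at low light it had 45.03, 27.2 and 24.7 CPM in palisade libraries, against 348, 319.9 and 214 CPM in reference libraries (-3.34 ± 0.10, FDR 2.89e-15), and without inhibitors 106, 63.1 and 75.8 CPM, against 325, 329.5 and 292 CPM (-2.02 ± 0.12, FDR 1.53e-09). At high light it had 74.02, 38.7 and 48.1 CPM in palisade libraries, against 519, 325 and 336 CPM in reference libraries (-2.95 ± 0.07, FDR 2.68e-26). The palisade libraries never reached the reference libraries. TIP2;1 had 127, 107 and 159.7 CPM in palisade libraries, against 373, 246 and 414 CPM in reference libraries without inhibitors (-1.42 ± 0.09, FDR 3.05e-09), and with inhibitors at low light 91.02, 128 and 78.5 CPM, against 289.8, 260.4 and 271 CPM (-1.63 ± 0.11, FDR 7.34e-10). At high light it had 127, 94.7 and 65.5 CPM in palisade libraries, against 260.0, 151 and 143 CPM in reference libraries (-1.001 ± 0.07, FDR 5.1e-13). PIP1;5 had 32.1, 39.9 and 49.7 CPM, against 104, 102 and 127 CPM (-1.51 ± 0.09, FDR 1.49e-09), and PIP1;3 had 97.2, 96.3 and 134 CPM, against 210.2, 186 and 262 CPM (-1.05 ± 0.08, FDR 4.69e-08). Neither gene's palisade libraries overlapped the reference libraries. With inhibitors at low light the first of them had 71.5, 73.5 and 50.9 CPM in palisade libraries, against 181, 197 and 191 CPM in reference libraries (-1.69 ± 0.09, FDR 2.26e-11), and the second 137, 124 and 95.7 CPM, against 267, 249 and 250.3 CPM (-1.25 ± 0.08, FDR 3.45e-10). PIP2;7 was lower in palisade cells without inhibitors (-1.26 ± 0.09) and with them at low light (-1.47 ± 0.11), with 48.00, 26.9 and 22.4 CPM in palisade libraries, against 89.2, 86.99 and 60.6 CPM in reference libraries in the second case, but its value at high light, -0.54 ± 0.08, did not pass the fold limit. The abundant water channel PIP2;1 had 537, 472 and 333 CPM in palisade libraries, against 836, 927 and 758 CPM in reference libraries with inhibitors at low light (-1.07 ± 0.08, FDR 2.04e-09), and at high light 768, 439 and 572 CPM, against 1406, 959 and 1087 CPM (-1.04 ± 0.07, FDR 6.37e-15). Without inhibitors its value was -0.82 ± 0.09, FDR 1.85e-06, below the fold limit, and its palisade libraries lay under the reference libraries in each of the 3 conditions.

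**Figure D4:**
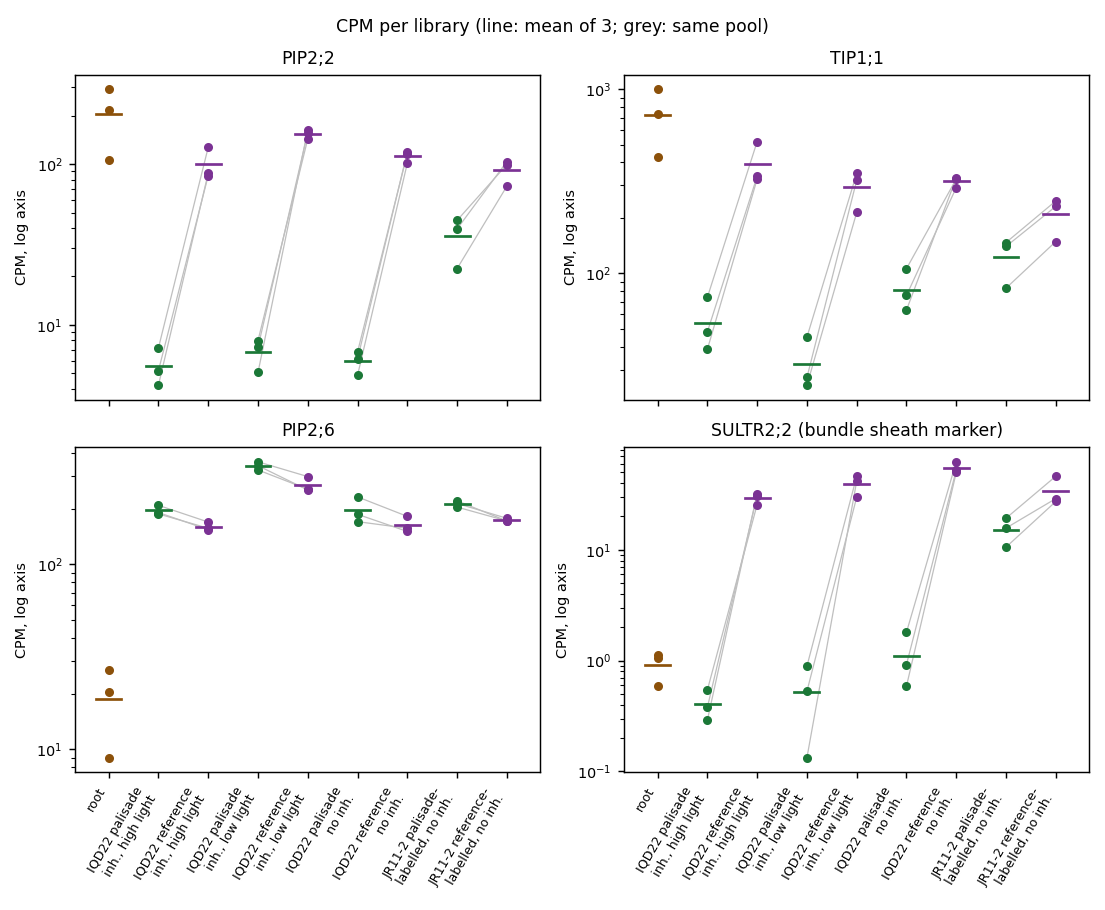
CPM of PIP2;2, TIP1;1, PIP2;6 and the bundle sheath marker SULTR2;2 in every library of the 9 groups, on log axes, with a bar at the mean of 3 libraries and a grey line between the palisade and reference library of 1 pool. PIP2;2 in IQD22 palisade cells lies between 4.22 and 7.99 CPM in all 3 conditions, whereas JR11-2 palisade-labelled libraries hold 22.4 to 44.7 CPM, and PIP2;6 is lowest in root.

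Members present at low counts also differed. PIP2;8 had no count in palisade libraries without inhibitors, against 0.643, 0.452 and 0.635 CPM in reference libraries. Its high light call was lost on leaving out either of 2 pools (FDR 0.0803 and 0.178). Without the remaining pool PIP2;8 had too few counts to be tested, so the call held on leaving out none. NIP6;1 was called lower with inhibitors at low light, with 0.0743, 0 and 0.235 CPM in palisade libraries, against 0.762, 0.521 and 0.534 CPM in reference libraries (FDR 0.013), and again at high light (FDR 0.000691). The first call was lost on leaving out either of 2 pools (FDR 0.0501 and 0.053), and NIP6;1 could not be tested without the remaining pool. It thus held on leaving out none. The second call was lost on leaving out 1 pool (highest FDR 0.0822). The calls of NIP5;1 (0.393, 0.318 and 0.703 CPM, against 0.257, 0 and 0.127 CPM, FDR 0.0415) and NIP2;1 (0.245, 0.584 and 0.395 CPM, against 0.0857, 0.151 and 0.127 CPM, FDR 0.0449) as higher in palisade cells without inhibitors rested on 30 and 25 palisade counts. Both were lost with DESeq2 (adjusted p 0.139 and 0.265). The first was also lost on leaving out pool 2 or pool 3 (highest FDR 0.276), and the second on leaving out any of the 3 pools (0.0596 to 0.178).

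PIP2;6, TIP2;2 and SIP1;2 leaned towards palisade cells without passing the fold limit. PIP2;6 had 359.5, 343 and 325 CPM in palisade libraries, against 299, 253 and 255 CPM in reference libraries with inhibitors at low light (0.21 ± 0.07, FDR 0.0276). TIP2;2 had 155, 127 and 109.7 CPM, against 95.1, 74.7 and 71.8 CPM (0.56 ± 0.08, FDR 9.17e-06), and at high light its value was -0.19 ± 0.07. SIP1;2 had 2.82, 2.46 and 2.47 CPM, against 2.79, 1.30 and 1.07 CPM with inhibitors at low light. Over both strains it was lower in the palisade library in only 1 of the 12 pools. SIP1;1 differed little between the populations, with log2 fold changes of -0.05, -0.08 and -0.16.

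In JR11-2 the palisade-labelled population lacks GFP and is not defined by a palisade marker. Of 24 members tested, 3 were called lower and none higher in it (2.16% of all genes called, 1.44% and 0.714%), and the members' median log2 fold change was -0.37, where that of all genes was -0.01. PIP2;2 had 44.7, 39.5 and 22.4 CPM in palisade-labelled libraries, against 99.3, 104 and 72.9 CPM in reference-labelled libraries (-1.41 ± 0.08, FDR 9.08e-11). PIP2;7 had 47.4, 42.6 and 15.2 CPM, against 93.7, 83.0 and 36.2 CPM (-1.06 ± 0.07, FDR 8.32e-10), groups that overlapped although each pool lay on the same side of 0. PIP2;8 had 0, 0.242 and 0.0518 CPM, against 0.286, 0.819 and 0.132 CPM, at an FDR of 0.04996, and at 0.229 without pool 1. Without pool 2 it had too few counts to be tested. The third JR11-2 pool had the lowest summed level per length in both populations, 1063 against 1433.

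Whether the population difference was the same in both strains was tested over the 4 groups without inhibitors. It differed for 9 of 25 members, all lower in the IQD22 contrast, where 15.2% of all genes differed in either direction (7.35% lower, 7.86% higher). Of all genes called 51.7% were higher, and 40% under upper-quartile normalization. PIP2;2 differed most, by -2.85 ± 0.14 on the log2 scale (FDR 6.07e-15), then TIP1;1 (-1.22 ± 0.12, FDR 2.77e-08), PIP1;5 (-0.87 ± 0.11), TIP2;1 (-0.86 ± 0.10) and PIP1;3 (-0.53 ± 0.09). PIP2;6 (-0.04 ± 0.10) and PIP2;7 (-0.18 ± 0.11) were not called.

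Markers of vascular and bundle sheath cells moved with the IQD22 contrast. Their sum over 7 genes was 8.01 to 9.36 CPM in IQD22 palisade libraries and 75.8 to 93.4 CPM in reference libraries without inhibitors, 6.66 to 13.9 and 52.3 to 77.4 CPM with inhibitors at low light, and 7.35 to 22.7 and 53.7 to 106.6 CPM at high light. In the first and second of these, 6 of the 7 were called lower in palisade cells, and SULTR2;2, a sulfate transporter of the bundle sheath, had log2 fold changes of -5.70 and -6.37. In JR11-2 the sums overlapped, at 34.7 to 65.9 CPM in palisade-labelled and 43.2 to 61.0 CPM in reference-labelled libraries, with 2 of the 7 lower and 1 higher. None of the 7 was at 0 in all libraries of a leaf group. Of 7 epidermis and guard cell markers, 3 were lower in IQD22 palisade cells in each condition. The part of these cells in the aquaporin differences was not tested. Among the 15 regulators tested, XND1, a transcription factor of xylem cells, was called lower in palisade cells without inhibitors and with them at low light, where it had no count, against 0.804 to 1.02 and 0.254 to 0.625 CPM in reference libraries. TSPO, which steers PIP2;7 to degradation, was lower without inhibitors (-1.57), and no other regulator was called in these conditions.

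Actinomycin D and cordycepin block RNA synthesis, and the paper added them to limit the effect of protoplasting on transcription. Libraries with them came from other pools and were shallower, at 15074702 to 19233615 counts on genes, against 21446134 to 26681749 in IQD22 libraries without them. Changes due to protoplasting cannot be told apart here from other effects of the block or of pool and depth. Of 22 members tested in IQD22 palisade cells, 4 were lower and none higher with inhibitors, and of 25 in reference cells 4 were lower and none higher, where 19.9% and 22% of all genes were called, 19.1% and 20.9% lower and 0.868% and 1.16% higher. Of all genes called, 4.35% in palisade and 5.28% in reference cells were higher, and 23.6% and 24.7% under upper-quartile normalization, which moved the median of all genes by 0.31 and 0.26 on the log2 scale. The members' edgeR count of 0 higher became 2 and 3 under upper-quartile normalization, and at an FDR below 0.05 without the fold limit some members, such as PIP1;2 (0.76 ± 0.16 in palisade and 0.76 ± 0.13 in reference cells) and PIP2;6 (0.74 ± 0.16 and 0.75 ± 0.13), were above 0. TIP1;1 had 45.03, 27.2 and 24.7 CPM with inhibitors, against 106, 63.1 and 75.8 CPM without them in palisade cells (-1.42 ± 0.25, FDR 0.00114), and 348, 319.9 and 214 CPM, against 325, 329.5 and 292 CPM in reference cells (-0.08 ± 0.17). The difference between those responses was -1.21 ± 0.16 (FDR 5.78e-06), so TIP1;1 was lower with inhibitors in palisade cells and overlapped in reference cells. Differences of response were called for 2 of 26 members in all, TIP1;1 and TIP2;2 (0.41 ± 0.12, FDR 0.0334, and 0.0509 to 0.279 on leaving out each pool), where 4.75% of all genes were called, 4.4% higher and 0.346% lower.

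NIP1;2 was lower with inhibitors in both populations. It had 0.669, 0.732 and 1.12 CPM with inhibitors, against 5.55, 2.55 and 3.47 CPM without them in palisade cells (-2.23 ± 0.38, FDR 0.00102), and 0.550, 0.573 and 0.437 CPM, against 3.21, 2.21 and 3.34 CPM in reference cells (-2.46 ± 0.30, FDR 5.08e-05). SIP1;2 had 2.79, 1.30 and 1.07 CPM with inhibitors, against 4.67, 3.57 and 3.13 CPM without them in reference cells (-1.097 ± 0.34, FDR 0.0199). The groups of neither gene overlapped, but the call of the second was lost on leaving out any of 3 libraries (highest FDR 0.0698). A further 3 channels, all called higher in root, had few leaf counts. TIP2;3 had 0 counts with inhibitors, against 10 without them in palisade cells, at least 2.45-fold lower, and 1 count, against 24 in reference cells (22.8-fold lower, counting interval 3.71 to 936). NIP5;1 had 2 counts with inhibitors, against 30 without them in palisade cells (11.01-fold lower, 2.79 to 95.1), and NIP2;1 had 0, against 8 in reference cells, at least 2.53-fold lower. Of these calls, the first in palisade cells was lost on leaving out any library with inhibitors (FDR 0.0631 to 0.0707), that of the boric acid channel on leaving out any of 3 libraries (highest FDR 0.0577), and that of the lactic acid channel with DESeq2 (adjusted p 0.0862). On leaving out a library without inhibitors, TIP2;3 in either population and NIP2;1 in reference cells had too few counts to be tested. Of the 15 regulators, SYP121 (-3.22 and -3.39), QSK1 (-3.66 and -4.10), BAK1 (-2.36 and -2.42), TSPO (-1.48 and -2.39) and LIP5 (-1.72 and -1.76) were lower with inhibitors in palisade and reference cells, and XND1 in reference cells.

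After 2 h of high light, with inhibitors in both groups, 2 of 20 members were lower and none higher in palisade cells (13.2% of all genes called, 5.15% and 8.07%), and 1 of 24 was lower and 3 higher in reference cells (16.6% called, 6.57% and 10.1%). Of all genes called in palisade cells 61% were higher, and 50.6% under upper-quartile normalization. The low light libraries with inhibitors serve here and in the inhibitor comparison. PIP1;5 was lower in both: it had 36.0, 23.9 and 26.0 CPM at high light, against 71.5, 73.5 and 50.9 CPM at low light in palisade cells (-1.30 ± 0.17, FDR 9.85e-05), and 79.0, 58.0 and 62.2 CPM, against 181, 197 and 191 CPM in reference cells (-1.71 ± 0.12, FDR 1.39e-06). PIP1;3 had 80.9, 50.6 and 59.9 CPM at high light, against 137, 124 and 95.7 CPM at low light in palisade cells (-1.01 ± 0.17, FDR 0.000583), and -0.91 ± 0.14 in reference cells was below the fold limit. High and low light libraries of these genes did not overlap in either population. The palisade call of the second gene fell under the fold limit on leaving out any of 4 libraries (-0.90 to -0.98).

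**Figure D5:**
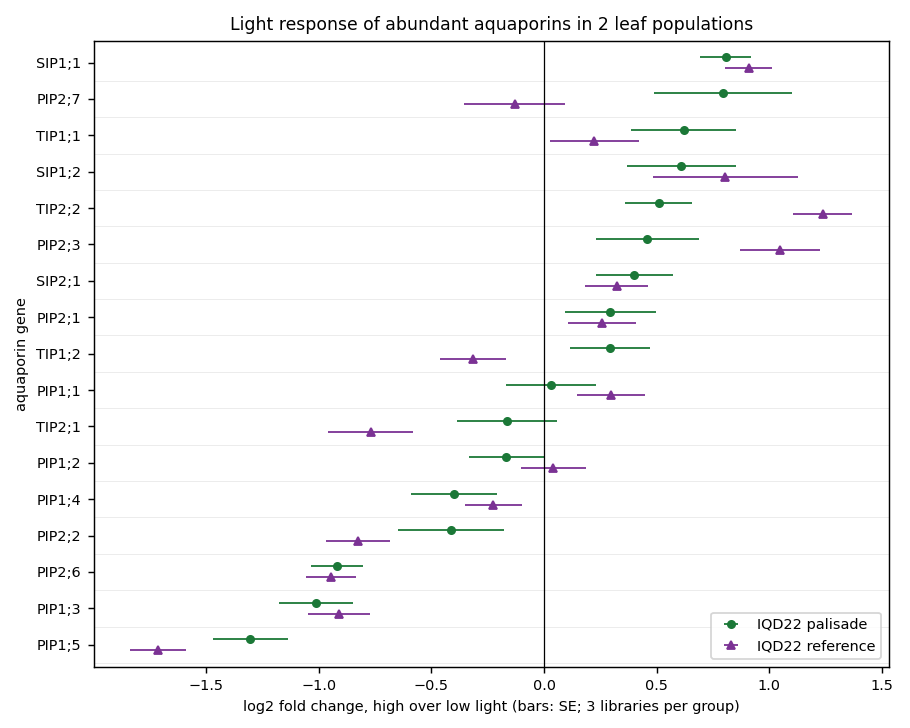
Log2 fold change of high over low light (points) with its SE (bars) for the 17 members with at least 10 counts in every leaf library, in IQD22 palisade and reference cells, 3 libraries per group. PIP1;5 is lowest in both populations (-1.30 and -1.71), SIP1;1 is above 0 in both (0.81 and 0.91), and TIP2;2 is farther right in reference cells (1.24) than in palisade cells (0.51).

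TIP2;2 was higher at high light in reference cells, with 247, 196 and 209 CPM, against 95.1, 74.7 and 71.8 CPM at low light (1.24 ± 0.13, FDR 2.5e-05), while in palisade cells it had 228, 159.8 and 214 CPM, against 155, 127 and 109.7 CPM (0.51 ± 0.15, FDR 0.0195, below the fold limit). PIP2;3 had 38.3, 24.3 and 27.6 CPM at high light, against 12.2, 15.5 and 10.3 CPM at low light in reference cells (1.05 ± 0.18, FDR 0.000634), and its near copy PIP2;2 had 127, 84.9 and 87.7 CPM, against 157, 163 and 143 CPM (-0.83 ± 0.14, FDR 0.00073). Neither pair of groups overlapped, and the neighbours thus lay on opposite sides of 0. The call of the first fell under the fold limit on leaving out either of 2 libraries (0.87 and 0.93) and with upper-quartile normalization (0.96). NIP7;1, called in reference cells, had 11 counts at high light and none at low light, at least 4.54-fold higher. In palisade cells it had 5, 2 and 3 counts at high light, against 0, 0 and 1 at low light, without a call. SIP1;1 had 99.6, 81.8 and 100.2 CPM at high light, against 51.9, 50.1 and 46.7 CPM at low light in palisade cells (0.81 ± 0.11), and 104, 90.5 and 107 CPM, against 46.9, 46.9 and 46.6 CPM in reference cells (0.91 ± 0.10), without overlap and below the fold limit. PIP2;6 did not pass the limit either: it had 209, 191 and 188 CPM at high light, against 359.5, 343 and 325 CPM at low light in palisade cells (-0.92 ± 0.12), and 169.7, 154 and 157 CPM, against 299, 253 and 255 CPM in reference cells (-0.94 ± 0.11), with no overlap between the lights.

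The difference between the light responses of both populations was called for 5 of 25 members, 3 higher and 2 lower in palisade cells, where 5.54% of all genes were called, 1.83% higher and 3.71% lower. PIP2;7 (0.90 ± 0.15, FDR 0.000115), TIP1;2 (0.59 ± 0.11, FDR 0.000481) and TIP2;1 (0.60 ± 0.14, FDR 0.00548) responded more positively in palisade cells, and TIP2;2 (-0.77 ± 0.10, FDR 9.47e-06) and PIP2;3 (-0.64 ± 0.17, FDR 0.0144) less. On leaving out single pools the highest FDR of the last gene was 0.0948, and that of the third 0.109. PIP2;7 had 93.3, 51.8 and 36.6 CPM at high light, against 48.0, 26.9 and 22.4 CPM at low light in palisade cells, and 121, 62.8 and 64.7 CPM, against 89.2, 87.0 and 60.6 CPM in reference cells, groups that overlapped. TIP1;2 had 490.2, 401 and 341 CPM, against 245, 367 and 314 CPM in palisade cells, and 503, 374 and 365 CPM, against 403, 441 and 503 CPM in reference cells. TIP2;1 had 127, 94.7 and 65.5 CPM, against 91.0, 128 and 78.5 CPM in palisade cells, and 260.0, 151 and 143 CPM, against 289.8, 260.4 and 271 CPM in reference cells. High and low light libraries overlapped in at least 1 population for each of these 3 genes, and the test rests on the ratio of palisade to reference within each pool. Of the regulators, OST1, a kinase that activates PIP2;1 in guard cells, was higher at high light (1.55 in palisade and 1.36 in reference cells), as was TSPO (1.83 and 1.23), and SIRK1 was lower (-1.32 and -1.003). The exporter BOR1 was lower in both (-1.43 and -1.75). Of the 11 pumps and transporters, 2 were higher (TST1 and TST2, 1.06 and 1.54) and 2 lower (CAX1 and TPC1, -2.18 and -1.03) at high light in palisade cells, and in reference cells TST2 (1.36) and CAX3 (1.19) were higher and CAX1 (-1.50) lower.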

How the data were processed

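The authors sequenced strand-specific TruSeq libraries as 50-base single reads, used CASAVA 1.8.2, mapped reads to TAIR10 with TopHat 2.0.9, tallied reads on genes with HTSeq 0.6.1 and deposited these counts without normalization. Reads with several alignments (4.33% to 9.75% per library) were not counted, which lowers near-identical genes. From these counts, 279 organelle genes were left out and 33323 nuclear genes kept. A gene was tested where 3 or more of the libraries compared held 2 counts or more, using edgeR 4.0.16 (R 4.3.3), TMM factors and the quasi-likelihood F-test, with Benjamini-Hochberg adjustment over all genes tested. A call needed an FDR below 0.05 and a fold above 2, and for differences of responses the FDR alone. Standard errors are approximate, the absolute log2 fold change over the square root of F. Palisade and reference libraries share a protoplast pool by their labels, and their deviations from group means correlated in every pair (0.244 to 0.713), so the pool was a block there. Other comparisons share only a replicate number and had no block. Lengths, coordinates and sequences come from the RefSeq annotation of TAIR10.1, whereas counts use TAIR10. Exact counting intervals at 95% and floors of 3 counts over a group were used for sparse genes. On simulated counts for 2 of the comparisons the test recovered 200 of 200 changed genes. All of these were well expressed, changed well beyond the fold limit and had the same dispersion. Sparse members, folds near the limit and differences of responses were thus not covered. Per comparison, values per library were given for up to 6 called members with the largest change and separated libraries, for members with a called difference of responses and for the 6 highest levels, and other members were named after their values were seen. Members and lists were chosen with earlier results of these data known. DESeq2 1.42.0, upper-quartile normalization, other filters, the block and each replicate left out were the alternatives.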

Additional observations from a re-analysis of the deposited data

Results flagged for a closer look

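The difference between the responses of 2 populations or strains passed an FDR of 0.05 for the following members, each tested as an interaction in edgeR. For high over low light, palisade minus reference, these were PIP2;7 (0.90 on the log2 scale), TIP1;2 (0.59), TIP2;1 (0.60), PIP2;3 (-0.64) and TIP2;2 (-0.77). For inhibitors over none, palisade minus reference, these were TIP1;1 (-1.21) and TIP2;2 (0.41). For palisade over reference, IQD22 minus JR11-2, these were PIP2;2 (-2.85), TIP1;1 (-1.22), PIP1;5 (-0.87), TIP2;1 (-0.86), PIP1;3 (-0.53), PIP2;1 (-0.42), TIP1;2 (-0.40), TIP2;2 (-0.33) and PIP1;2 (-0.32). The last contrast also compares 2 sorting markers, and strain and sort cannot be told apart. Bundle sheath and vascular marker sums separated the IQD22 populations and overlapped in JR11-2, and their part in these differences was not tested.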

How the results depend on the processing

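Of 671 alternatives for 75 single-gene results, 584 kept direction and call, 87 kept the direction but lost the call and 0 reversed. Alternatives in which the gene had too few counts to be tested are not among them. With at least 10 counts in every library, for example, 36 of the 75 results could be tested. Of the 75 results 46 lost no call, but sparse genes among them had fewer alternatives. PIP2;8 in palisade against reference cells without inhibitors had only 4. Of 306 alternatives for 30 counts of calls, 248 stayed within 1.5 times. With at least 10 counts in every library, which tests fewer genes, 9, 6, 10 and 8 members were higher in root in the 4 comparisons, 1 was lower with inhibitors in palisade and 1 in reference cells, and 0 were higher in palisade than reference cells without inhibitors. With upper-quartile normalization 3 were lower at high light in reference cells, 2 and 3 were higher with inhibitors in palisade and reference cells, and 0 had a higher inhibitor response. With DESeq2, 0 were higher in palisade cells without inhibitors, 1 had a lower light response and 0 a higher inhibitor response. With no filter the counts were 1 higher in palisade cells without inhibitors, 5 with a higher light response, 0 and 2 with a higher and lower inhibitor response, and 1 with a higher difference between strains. The cause was not tested for these.

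Without the pool as a block (no replicate block), 0 were higher in palisade cells without inhibitors, 0 lower in JR11-2, 0 and 0 had a higher or lower light response, 0 and 0 an inhibitor response, and 1 was lower in the difference between strains. In JR11-2 the FDR was then 0.088 for PIP2;2, 0.53 for PIP2;7 and 0.58 for PIP2;8. Adding the replicate number as a block to the other comparisons, which share only a number (mean correlation -0.140 to 0.177), moved no count by over 1.5 times.

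On leaving out single libraries or pools, members higher in root than in JR11-2 reference-labelled cells were 10 to 17, with 10 without the second root library. At high light 0 to 1 were higher and 1 to 2 lower in palisade cells, and 1 to 4 higher and 1 to 4 lower in reference cells, with 1 and 4 without the first high light reference library. With inhibitors 0 to 1 were higher and 2 to 4 lower in palisade cells (1 and 2 without replicate 3 lacking inhibitors, 2 lower also without replicate 1 or 3 with them), and 1 to 4 lower in reference cells (1 without replicate 1 lacking inhibitors, 2 without replicate 2 or 3). In palisade against reference cells without inhibitors 0 to 1 were higher, with 1 without pool 1. The light response was higher for 2 to 5 and lower for 1 to 2 (5 and 1 without the first low light pool, 1 lower also without high light pool 2 or 3), the inhibitor response higher for 0 to 0 and lower for 1 to 2 (2 without the first pool with inhibitors), and the difference between strains higher for 0 to 1 (1 without the first IQD22 or the second JR11-2 pool). Depth limits members under 3 counts per library, of which 5 never exceeded 6 counts.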
